A study of Mus musculus with 20 samples.

Results

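The gasdermin genes of the gut epithelium described here are Gsdmc, Gsdmc2, Gsdmc3, Gsdmc4 and Gsdmd, 5 of the 23020 genes in the deposited table. They were selected by gene symbol, and the set was chosen because Gsdmc4 was higher in co-housed than in separately housed Xiap-/- crypts. That difference is therefore given as a description, with no test. Epithelial crypts of the mouse small intestine were profiled in 20 bulk libraries, each made from the 3′ ends of polyadenylated RNA and tagged with molecular identifiers. All mice were of the C57BL/6 strain. The wild-type mice carried intact Xiap, and the Xiap-/- mice lacked it; the part of the gene that was removed, the ages and the cages are not stated in the labels. Mice were kept with their own genotype, here called housed apart (6 wild-type and 4 Xiap-/- mice), or wild-type and Xiap-/- mice shared housing for 4 weeks (5 of each).

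Gasdermins are pore-forming proteins kept inactive by their own C-terminal part. When a protease cuts Gsdmd between its N- and C-terminal parts, as the inflammatory caspases Casp1 and Casp4 do, the N-terminal part inserts into membranes, releases interleukin-18 and interleukin-1 beta and can kill the cell by pyroptosis. The Gsdmc genes are a mouse cluster of close copies with high activity in the intestinal epithelium, where type 2 cytokines acting through Stat6 are known to raise them during worm infection. Xiap, an inhibitor of caspases and a ubiquitin ligase, restrains cell death and inflammasome activity.

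The 4 Gsdmc genes lie side by side on the minus strand of chromosome 15 (GRCm38, GENCODE M21): Gsdmc at chr15:63775968-63808759, Gsdmc2 at chr15:63824346-63845177, Gsdmc3 at chr15:63857724-63878558 and Gsdmc4 at chr15:63891264-63912297. Gsdmd lies on the plus strand of the same chromosome at chr15:75862327-75867408. The coding sequences of Gsdmc2 and Gsdmc3 were 97.1% identical, those of Gsdmc2 and Gsdmc4 93.9%, and those of Gsdmc3 and Gsdmc4 93.8%. The last 60 coding bases before the stop codon show how few positions tell the copies apart. They are printed 5′ to 3′ from the GENCODE M21 transcripts, which lie on the minus strand at chr15:63891807-63891866 for Gsdmc4, chr15:63824881-63824940 for Gsdmc2 and chr15:63858274-63858333 for Gsdmc3, each within 1 exon. Capitals in Gsdmc2 and Gsdmc3 mark bases that differ from Gsdmc4, and capitals in Gsdmc4 mark the 5 positions where either copy differs.
Gsdmc4: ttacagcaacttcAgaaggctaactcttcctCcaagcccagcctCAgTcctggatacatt
Gsdmc2: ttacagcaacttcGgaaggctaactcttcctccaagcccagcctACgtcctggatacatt
Gsdmc3: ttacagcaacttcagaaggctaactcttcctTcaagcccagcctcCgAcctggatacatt

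The cDNA reads were 75 bases long, so a read from a shared stretch cannot be assigned to 1 gene. Of the 426 windows of 75 bases in the last 500 transcript bases, 107 (25.1%) of Gsdmc3, 101 (23.7%) of Gsdmc2 and 73 (17.1%) of Gsdmc were also found, letter for letter, in another gasdermin transcript. For Gsdmc4 and Gsdmd the number was 0. How the authors treated reads that match several genes is not given in the sources used here, so the values of Gsdmc, Gsdmc2 and Gsdmc3 are uncertain in a way that those of Gsdmc4 and Gsdmd are not.

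Values are on the authors' normalized log2 scale, and the depth of each library is unknown. A stand-in for depth was therefore used: the percentage of scarcely detected genes (mean under -3) that stood more than 0.015 over their own median. It was 7.71% ± 3.69 (SD, n = 6) in wild-type apart, 17.1% ± 10.5 (n = 4) in Xiap-/- apart, 8.74% ± 1.47 (n = 5) in wild-type co-housed and 8.77% ± 2.77 (n = 5) in Xiap-/- co-housed libraries. The highest value was 32.1%, in Xiap-/- apart library 2. Xiap RNA was lower in Xiap-/- than in wild-type libraries housed apart (6.38 ± 0.10 against 6.81 ± 0.17, exact two-sided permutation p = 0.00476, adjusted over 2 comparisons 0.00952), and the co-housed groups overlapped (6.62 ± 0.22 against 6.67 ± 0.20, exact permutation p = 0.683). A 3′ read may lie outside the deleted part, so this checks the labels of the mice housed apart only in part. It leaves the genotype labels of the co-housed libraries unchecked: the highest level there was 6.91 in Xiap-/- and 6.84 in wild-type libraries. Why the genotypes differed in Xiap RNA in mice housed apart and not in co-housed mice was not tested. The extraction text names liver, but crypt products were abundant, with a mean of 14.17 for the Paneth cell defensin Defa24 and 13.75 for the enterocyte gene Fabp2, while 1 of 5 hepatocyte markers passed the minimum mean (Ttr, 4.11). The p-values measure the spread between mice of a group, which may share cages.

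Gsdmd was the most abundant of the gasdermin genes and the Gsdmc genes spanned a wide range below it. Since 1 tag is read per transcript 3′ end, the levels do not scale with gene length. Over the 20 libraries the mean log2 level was 8.66 for Gsdmd, 5.93 for Gsdmc4, 3.49 for Gsdmc2, 2.60 for Gsdmc3 and -0.66 for Gsdmc, which placed them at ranks 526, 4080, 9249, 10619 and 16342 of the 23020 genes. This order held in each of the 20 libraries, since the 5 ranges did not overlap. The minimum mean for model fitting was a linear level of 10 (3.32 on the log2 scale), which 9521 genes passed, among them 3 of the 5 gasdermin genes: Gsdmc2, Gsdmc4 and Gsdmd. Gsdmc3 and Gsdmc fell below it.

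Gsdmc4, a member of the cluster with no shared 3′ window, had the widest range, 1.30 on the log2 scale between its lowest and highest library. Within the cluster the range fell with the level, to 0.83 for Gsdmc2, 0.50 for Gsdmc3 and 0.25 for Gsdmc. Whether the authors' scale narrows the range of scarce genes was not tested, so nothing is read from this order. In wild-type apart crypts its level ran from 5.66 to 6.09 with a median of 6.04, and the mean was 5.93 ± 0.20 (SD, n = 6). In Xiap-/- apart crypts it was 5.72, 5.30, 5.21 and 5.61 (mean 5.46 ± 0.24, n = 4). These were the lowest of the 4 groups: 3 of the 4 Xiap-/- libraries lay below all 6 wild-type libraries, and none above the wild-type median. In wild-type co-housed crypts it was 6.34, 6.15, 5.89, 6.25 and 5.81 (mean 6.09 ± 0.23, n = 5). In Xiap-/- co-housed crypts it was 5.96, 6.18, 5.93, 6.51 and 6.21 (mean 6.16 ± 0.24, n = 5). All 5 co-housed Xiap-/- libraries lay above all 4 Xiap-/- libraries housed apart, with a gap of 0.21, while both co-housed genotypes occupied the same range as wild-type apart crypts and extended above it.

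Between co-housed and separately housed Xiap-/- crypts, the difference that chose the gene, Gsdmc4 differed by 0.70 ± 0.13 (SE of the limma model) on the log2 scale, a 1.62-fold higher level. Groups that do not overlap were found for 5.63% of all tested genes in this comparison and 0.147% passed the limma threshold, and nothing is read from Gsdmc4 being among the former. Between Xiap-/- and wild-type crypts housed apart the difference was -0.47 ± 0.13, a ratio of 0.720. It shares the Xiap-/- apart libraries with the choice of the gene and is likewise a description. These groups overlapped, as did those of all but 1.87% of tested genes. In co-housed crypts the genotypes differed by 0.07 ± 0.12 and overlapped (3.09% of tested genes did not). In bulk RNA a lower level can stand for fewer cells that make the transcript or for less of it per cell, and these cannot be told apart.

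Housing of wild-type mice, which the choice of the genes did not use, gave a test. Gsdmc4 was 0.15 ± 0.12 higher in co-housed than in separately housed wild-type crypts, with a 95% interval of -0.09 to 0.39 and a limma Benjamini-Hochberg adjusted p of 0.665. This difference was within the spread between mice, and the groups overlapped, with 3 of 5 co-housed libraries above all 6 housed apart (0.525% of tested genes did not overlap). Among the 3 gasdermin genes tested, 0 passed the limma threshold of 0.05, and 0 of all 9521 genes did (0%), with 969 genes below an unadjusted p of 0.05. The housing difference in Xiap-/- crypts exceeded that in wild-type crypts by 0.55 ± 0.18 for Gsdmc4, a value that contains the difference used to choose it.

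**Figure D1:**
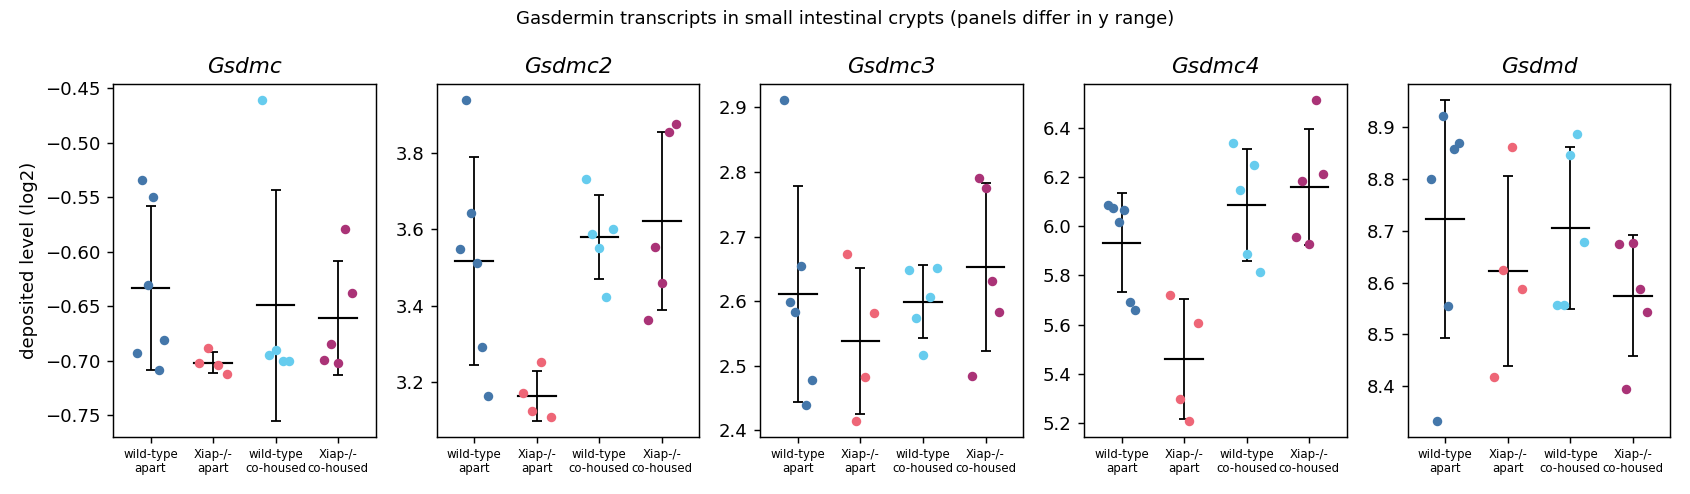
Log2 level of each gasdermin gene by genotype and housing, 1 panel per gene with its own vertical range; points are libraries, and bars are the group mean ± SD (n = 6, 4, 5 and 5). Gsdmc4, Gsdmc2, Gsdmc3 and Gsdmc have their lowest mean in Xiap-/- crypts housed apart (5.46, 3.16, 2.54 and -0.70). The genotypes housed apart overlap for all 5 genes. Between Xiap-/- crypts housed apart and co-housed, Gsdmc4 and Gsdmc2 do not overlap, and Gsdmc3, Gsdmc and Gsdmd do.

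Gsdmc2, a close copy whose level was lower than that of Gsdmc4, had the same order of group means, from Xiap-/- apart through wild-type apart and wild-type co-housed to Xiap-/- co-housed. For both genes the libraries of the last 3 groups in that order overlapped. Its levels ran from 3.16 to 3.94 with a median of 3.53 in wild-type apart crypts (mean 3.52 ± 0.27, n = 6). In Xiap-/- apart crypts they were 3.17, 3.13, 3.25 and 3.11, the narrowest spread of its 4 groups (mean 3.16 ± 0.07, n = 4). All 4 lay below the wild-type median, and 2 lay below all 6 wild-type libraries. Co-housed wild-type crypts had 3.73, 3.59, 3.55, 3.42 and 3.60 (mean 3.58 ± 0.11, n = 5), and co-housed Xiap-/- crypts 3.36, 3.55, 3.46, 3.85 and 3.87 (mean 3.62 ± 0.23, n = 5). As with Gsdmc4, the 5 co-housed Xiap-/- libraries lay above the 4 housed apart, here by a gap of 0.11. Of all tested genes, 5.63% did not overlap in this comparison, and nothing is read from Gsdmc2 being among them. The difference of 0.46 ± 0.12 between them, a 1.37-fold higher level, is given without a test because it comes from the same contrast as the choice of Gsdmc4. Xiap-/- and wild-type crypts differed by -0.35 ± 0.11 when housed apart (a ratio of 0.784) and by 0.04 ± 0.11 when co-housed. In wild-type mice the housing difference was 0.06 ± 0.11, with a 95% interval of -0.15 to 0.28 and a limma adjusted p of 0.863.

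Gsdmc3, the copy nearest to Gsdmc2 in sequence, stayed between 2.42 and 2.91 in all 20 libraries. Its group means were 2.61 ± 0.17 in wild-type apart, 2.54 ± 0.11 in Xiap-/- apart, 2.60 ± 0.06 in wild-type co-housed and 2.65 ± 0.13 in Xiap-/- co-housed crypts, and all groups overlapped. Gsdmc, the first gene of the cluster, was low, between -0.71 and -0.46 on a scale that reached down to -3.88. Such low values cannot be told from no expression. Its means were -0.63 ± 0.08, -0.70 ± 0.01, -0.65 ± 0.11 and -0.66 ± 0.05 in the same group order. Housing in wild-type mice moved neither beyond the spread. The difference was -0.01 for Gsdmc3 (exact two-sided permutation p = 0.916 over 462 arrangements) and -0.02 for Gsdmc (p = 0.786 by the same exact test). Both had an adjusted p of 0.916 over the 2 exact tests, in which the number of arrangements limits how small p can be.

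Gsdmd, the caspase substrate that carries out pyroptosis, was abundant and even in all groups. It ran from 8.33 to 8.92 with a median of 8.83 in wild-type apart crypts (mean 8.72 ± 0.23, n = 6) and was 8.42, 8.62, 8.86 and 8.59 in Xiap-/- apart crypts (8.62 ± 0.18, n = 4). In co-housed mice it was 8.56, 8.56, 8.85, 8.89 and 8.68 in wild-type crypts (8.70 ± 0.16, n = 5) and 8.67, 8.39, 8.68, 8.59 and 8.54 in Xiap-/- crypts (8.57 ± 0.12, n = 5). Every pair of groups overlapped, and the range over the 20 libraries was 0.59. The genotype comparisons could be tested for this gene, which played no part in the choice. Xiap-/- crypts differed from wild-type crypts by -0.10 ± 0.11 when housed apart (95% interval -0.32 to 0.12, limma adjusted p = 0.702), where 0.452% of all tested genes passed, and by -0.13 ± 0.11 when co-housed (-0.35 to 0.09, limma adjusted p = 0.654), where 0.0315% passed. The housing difference in wild-type crypts was -0.02 ± 0.10 (-0.23 to 0.19, limma adjusted p = 0.967). In Xiap-/- crypts it was -0.05 ± 0.11, given without a test. Both housing differences changed sign under quantile normalization, to 0.06 and 0.02. The comparisons share groups of libraries and are not independent of each other.

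**Figure D2:**
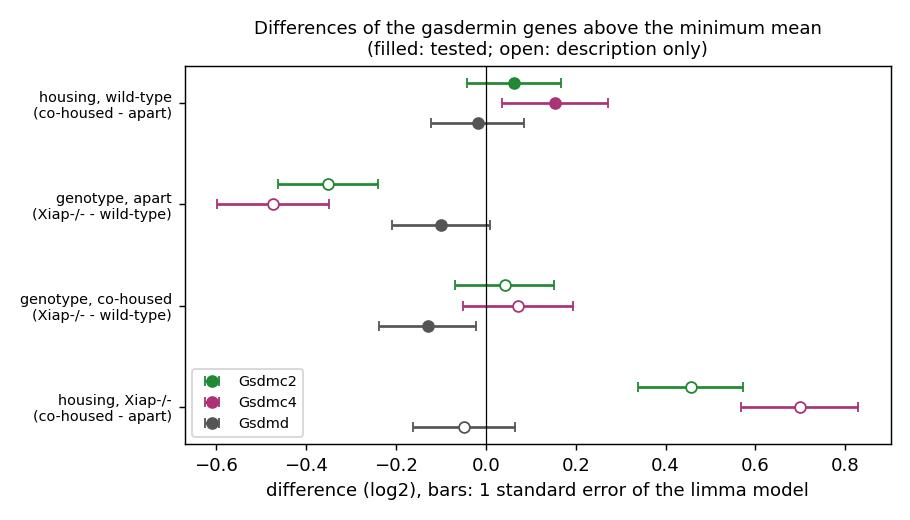
Log2 differences of Gsdmc2, Gsdmc4 and Gsdmd in the 4 comparisons, with bars of 1 SE from the limma model; filled points were tested and open points are descriptions. Gsdmc4 and Gsdmc2 differ by 0.70 and 0.46 in Xiap-/- housing and by -0.47 and -0.35 in genotype with mice housed apart. These values share libraries with the choice of Gsdmc4, so their bars are not read against 0. Gsdmd lies between -0.13 and -0.02 throughout.

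Across the 20 libraries the Gsdmc genes ran together to different degrees, and Gsdmd ran against them. These correlations are descriptions, since the libraries share groups, depth and cell composition. Pooled values of Gsdmc4 and Gsdmc2 also contain the Xiap-/- housing difference that chose Gsdmc4. Gsdmc2 and Gsdmc4 had a Pearson r of 0.78 (Spearman 0.76), and 0.55 after each group's mean was subtracted. Gsdmc3 and Gsdmc4 had 0.50 and 0.47, and Gsdmc2 and Gsdmc3, the most alike in sequence, had 0.34 and 0.21. With Gsdmd, the r of Gsdmc4 was -0.28, or -0.50 on deviations from the group means, and that of Gsdmc2 was -0.31, or -0.50. Gsdmc4 also ran against the depth stand-in, with an r of -0.53, and Gsdmc2 with -0.49, against 0.04 for Gsdmd. With the depth stand-in as a covariate the Gsdmc4 difference was 0.62 ± 0.15 for housing in Xiap-/- crypts and -0.38 ± 0.15 for genotype in mice housed apart.

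Libraries 5 and 6 of the wild-type apart group stood low, with 5.69 and 5.66 for Gsdmc4 and 3.29 and 3.16 for Gsdmc2, against 6.02 to 6.09 and 3.51 to 3.94 in the other 4. Both Gsdmc4 values and the lower Gsdmc2 value lay within the range of Xiap-/- apart crypts. Without library 5 the Gsdmc4 genotype difference in mice housed apart was -0.52 ± 0.13, and without library 6 it was -0.53 ± 0.13. The next 3 genes, chosen after their values were seen, are microbe-responsive. The same libraries were low in Duox2, the epithelial hydrogen peroxide producer that microbes induce, at 5.18 and 5.19 against 6.23 to 6.64 in the other 4 and 4.78 to 5.12 in Xiap-/- apart crypts. Duox2 was at 6.22 to 6.68 in co-housed wild-type and 5.86 to 6.67 in co-housed Xiap-/- crypts. Because Duox2 left a gap between 5.19 and 5.86, no pooled correlation of its level with Gsdmc4 is given; on deviations from the group means the r was 0.50. Reg3g, a secreted lectin that kills Gram-positive bacteria, was at 11.8 and 11.7 in the same 2 libraries, against 12.9 to 13.8 in the other 4. Pigr, the carrier of immunoglobulin A across the epithelium, was low in library 5 only, at 12.12, and at 12.78 in library 6, within the 12.69 to 13.05 of the other 4 and above the 12.08 to 12.36 of Xiap-/- apart crypts. The depth stand-in was 14.9% in library 5, 4.58% in library 6 and 5.39% to 7.55% in the other 4, against 9.55% to 32.1% in Xiap-/- apart libraries. What sets these 2 mice apart was not tested.

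Of 9518 other tested genes, those whose levels were most like Gsdmc4 over the 20 libraries were Pom121, a nuclear pore component (r = 0.85), Scd2, a fatty acid desaturase (0.82), Lgr4, a receptor for the Wnt-enhancing R-spondins (0.82), Ssr1, a subunit of the endoplasmic reticulum translocon (0.81), and Ipo5, a nuclear import receptor (0.81). These pooled values contain the Xiap-/- housing difference that chose Gsdmc4, so genes low in Xiap-/- apart crypts are favoured by the choice. Without the 2 libraries farthest from the median, Xiap-/- apart 2 and 3, the r was between 0.71 and 0.73 for these 5. Then 0 of them stayed among the 5 most alike. On deviations from the group means, the most alike were Cherp (0.86), Skiv2l2 (0.82), Gm15607 (0.81), Ipo5 (0.79) and Zdhhc20 (0.78). For Gsdmd the most alike by level were Slc6a8, the creatine transporter (0.81), Sult6b2 (0.78), Muc3, a brush border mucin (0.78), Eci3 (0.76) and Saraf (0.74). On deviations from the group means they were Btnl2 (0.89), Wbp1 (0.86), Reg1 (0.85), Slc3a1, an amino acid transporter subunit of the brush border (0.84), and Dhrs1 (0.83).

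The cell type lists separated Gsdmd from Gsdmc2 and Gsdmc4, the Gsdmc genes above the minimum mean. Markers of absorptive enterocytes, the mature villus cells, had a median r of 0.54 with Gsdmd over 15 genes, from 0.08 for Nt5e to 0.71 for Krt20, against 0.01 for all tested genes. With Gsdmc4 the same list had a median r of -0.39 and with Gsdmc2 one of -0.41. Stem cell markers had -0.53 with Gsdmd and 0.31 with Gsdmc4, and markers of dividing cells -0.39 and 0.42. On deviations from the group means the stem list had -0.45 and 0.12, and the dividing list -0.45 and 0.35. The list most like Gsdmc4 was that of B and plasma cells, with a median r of 0.55 over 4 tested genes (0.50 on deviations from the group means), and of 0.49 with Gsdmc2. On deviations from the group means the absorptive list still had 0.65 with Gsdmd and -0.24 with Gsdmc4. Summed absorptive marker levels overlapped between all groups, at 15.4 to 16.1 in wild-type apart, 15.5 to 16.0 in Xiap-/- apart, 15.5 to 15.6 in wild-type co-housed and 15.4 to 15.7 in Xiap-/- co-housed crypts. The 7 B and plasma cell markers in the table summed to 6.12 to 7.27, 6.12 to 6.38, 6.10 to 7.22 and 6.23 to 7.14 in that order of groups, which overlapped. The median difference of the 4 tested genes was -0.49 in genotype apart and 0.42 in Xiap-/- housing. By limma 0 of 4 passed in any comparison, where at most 0.452% of all tested genes did. Summed tuft cell markers were at 7.294 to 7.459 in Xiap-/- crypts housed apart and 7.033 to 7.290 in those co-housed, so the ranges all but met. Of all tested genes, 5.63% did not overlap in this comparison, and nothing is read from the tuft ranges. Of the 8 tested tuft genes, 1 fell with co-housing, the leukotriene synthase Ltc4s, by -0.52 ± 0.11 (limma adjusted p = 0.0283), where 0.147% of all tested genes passed. Summed enteroendocrine markers were at 10.7 to 11.2 and 10.5 to 10.8 in these groups, and 2 of 11, Reg4 and Chgb, rose in Xiap-/- against wild-type crypts housed apart (0.69 ± 0.14 and 0.47 ± 0.11, limma adjusted p = 0.0192 and 0.0469). So did 1 hepatocyte marker, Ttr, by 0.42 ± 0.10 (limma adjusted p = 0.0346), where 0.452% of all tested genes passed. With the depth stand-in as a covariate the limma adjusted p was 0.288 for Ltc4s, 0.769 for Reg4, 0.796 for Chgb and 0.796 for Ttr, and leaving out each library in turn kept the call in 14, 15, 5 and 13 of 20 fits. The part of cell composition in the Gsdmc4 difference was not tested.

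The partners of gasdermins in the pyroptosis pathway were examined as a list of 46 genes, of which 39 were in the table and 25 were tested. By limma, 0 rose and 0 fell in any of the 4 comparisons. Of all tested genes, 0% passed in wild-type housing, 0.452% in genotype apart, 0.0315% in genotype co-housed and 0.147% in Xiap-/- housing. The count of 0 is near these shares and is not read as a result about the list. Unadjusted p-values under 0.05 were found for 3 genes in wild-type housing, 7 in genotype apart, 2 in genotype co-housed and 6 in Xiap-/- housing, against 969, 1506, 1144 and 1072 of all 9521 tested genes. The median difference was -0.03, -0.004, 0.01 and 0.04 in that order, against about 0 over all tested genes. Pycard, the adaptor of inflammasomes, was the most abundant at a mean of 10.45, and its differences were 0.08, 0.03, 0.15 and 0.20. Gzma, a granule protease of cytotoxic lymphocytes, followed at 9.16 with a largest difference of -0.57 ± 0.24 in wild-type housing (limma adjusted p = 0.458).

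Among genes chosen after their values were seen, Casp1, the protease of inflammasomes, had means of 7.43 ± 0.29, 7.72 ± 0.15, 7.35 ± 0.17 and 7.47 ± 0.17 in wild-type apart, Xiap-/- apart, wild-type co-housed and Xiap-/- co-housed crypts. Casp4, which senses bacterial lipopolysaccharide in the cytosol and cuts Gsdmd, was at 5.95 ± 0.24, 5.68 ± 0.12, 5.99 ± 0.25 and 5.97 ± 0.14. Neither gene passed in any of the 4 comparisons, with limma adjusted p of 0.233 for Casp1 and 0.253 for Casp4 in genotype apart. Il18, the cytokine released by epithelial Gsdmd pores, was at 7.47, 7.67, 7.73 and 7.45, and Nlrp6, an epithelial inflammasome sensor, at 8.80, 8.81, 8.69 and 8.84. The other gasdermins differed in level: Dfna5, the older symbol of Gsdme, which caspase-3 cuts, was at 5.38, 5.59, 5.13 and 5.40, while Gsdma (-0.22) and Gsdma2 (-0.09) were below the minimum mean. Il1b was also below it, at -1.50. The 25 tested genes had a median r of 0.09 with Gsdmc4 and 0.08 with Gsdmd. The highest with Gsdmc4 were Naip1, a sensor of bacterial secretion needles, at 0.70 and Casp4 at 0.69. Ninj1, which ruptures the membrane of dying cells, had the lowest r with Gsdmc4 (-0.63) and the highest with Gsdmd (0.51).

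Of the ESCRT-III genes, whose complex removes gasdermin pores from the membrane, 15 of 15 were tested. None passed by limma in any comparison, where at most 0.452% of all tested genes did. Chmp2a and Pdcd6, the most abundant, had means of 8.48 each. Of 18 genes of the type 2 cytokine response, which drives the Gsdmc cluster in worm infection, 16 were in the table and 11 were tested. By limma 0 passed in any comparison, which is near the share of at most 0.452% over all tested genes. Neither count is read as a result about its list. The list had median differences of -0.02, -0.05, 0.01 and 0.00 in the order of wild-type housing, genotype apart, genotype co-housed and Xiap-/- housing. Itln1, a lectin of goblet and Paneth cells, was at a mean of 12.40 and Fcgbp, a mucus protein, at 10.92. The type 2 alarmin Il25 (-2.30) and the goblet cell product Retnlb (1.02) lay below the minimum mean. The r of this list with Gsdmc4 had a median of 0.09, from -0.38 for Ang4 to 0.44 for Sprr2a3.

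Microbe-responsive epithelial genes were described in the same way over the 20 libraries. Of 15 genes, 9 were tested, and their median r, against about 0 for all tested genes, was 0.64 with Gsdmc4, 0.63 with Gsdmc2 and 0.02 with Gsdmd. On deviations from the group means it was 0.45, 0.36 and -0.15. The pooled values for Gsdmc4 and Gsdmc2, here and for the other lists, contain the Xiap-/- housing difference that chose Gsdmc4. In that comparison 8 of these 9 genes, Duox2 among the 9, had an unadjusted limma p under 0.05, against 1072 of all 9521 tested genes. A high pooled r is therefore partly set by the choice. For Gsdmc4 the pooled r was 0.73 for the nitric oxide synthase Nos2, 0.71 for Duoxa2, the maturation factor of Duox2, 0.68 for Pigr and 0.64 for Reg3g. On deviations these were 0.58, 0.48, 0.45 and 0.35. Nos2 and Duoxa2 were also chosen after their values were seen. Reg3a ran the other way, at -0.73 pooled and -0.41 on deviations. In mice housed apart, 1 of the 9 rose and 1 fell in Xiap-/- against wild-type crypts by limma, where 0.452% of all tested genes passed: Reg3a by 1.04 ± 0.22 (adjusted p = 0.044) and Pigr by -0.54 ± 0.13 (adjusted p = 0.0492). Both calls were fragile: with the depth stand-in as a covariate the limma adjusted p was 0.796 for Reg3a and 0.832 for Pigr, and when each library was left out in turn the call was kept in 7 of 20 fits for Reg3a and 2 of 20 for Pigr. None passed in the other 3 comparisons, where 0% (wild-type housing), 0.0315% (genotype co-housed) and 0.147% (Xiap-/- housing) of all tested genes did. The list's median difference was 0.33 in wild-type housing, -1.08 in genotype apart, -0.26 in genotype co-housed and 0.78 in Xiap-/- housing.

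**Figure D3:**
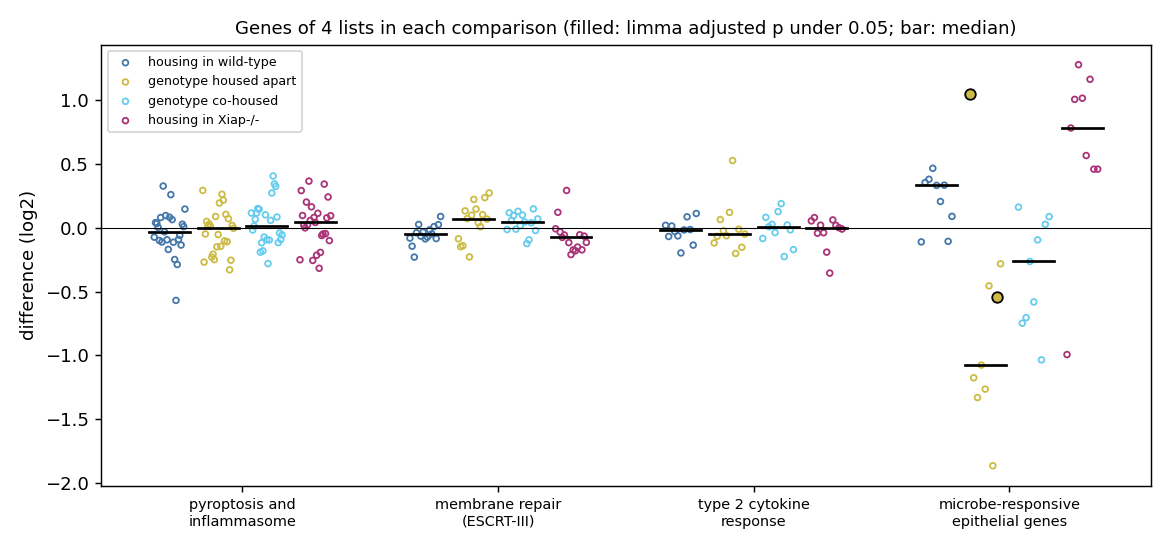
Log2 differences of the tested genes of the 4 pathway lists in each comparison; a point is a gene, filled where the limma adjusted p is below 0.05, and the bar is the list's median. The pyroptosis, ESCRT-III and type 2 lists centre near 0 in every comparison, and the microbe-responsive list has medians of -1.08 in genotype apart and 0.78 in Xiap-/- housing.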

How the data were processed

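The values, deposited by the authors, are normalized log2 levels between -3.88 and 16.30 for 23020 genes in 20 libraries. The submitters' processing notes name build GRCm38.p6 and DESeq2 1.18.1; the transformation, aligner, counter and annotation are not given in the sources used here. Whether the transformation shrinks differences of low genes was not tested, and no counts or depth could be recovered. Genes with a mean of at least 10 on the linear scale (9521) were fitted in limma 3.58.1 (R 4.3.3) with 1 mean per group over all 20 libraries (16 residual degrees of freedom), trend and robust moderation, and Benjamini-Hochberg adjustment over all tested genes. Gasdermin genes below that mean were compared by exact two-sided permutation.

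The members and lists were chosen with earlier results of these data known. Other genes are named if, in a list and comparison, they are among up to 4 passing genes of smallest p, or, where none passes, the 2 of highest mean; or if they are among the 5 genes most correlated with Gsdmc4 or Gsdmd, or are the most abundant of a marker list. All other names (such as Duox2, Reg3g, Nos2, Duoxa2, Casp1, Casp4, Il18, Nlrp6, Naip1, Ninj1, Dfna5, Reg4 and Chgb, and the ends of a list's range) were chosen after their values were seen. Sequences and positions come from GENCODE M21. Alternatives were no or a stricter filter (mean of 50), fits on the 2 groups compared, plain moderation, median centring, quantile normalization, array weights, the depth stand-in as a covariate, a replicate block, and leaving out each library.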

Additional observations from a re-analysis of the deposited data

Results flagged for a closer look

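Gsdmc in wild-type co-housed library 1 was -0.46, while the other 4 libraries of its group were between -0.70 and -0.69, so that the gap was 0.959 of the group's range (critical value 0.71 for 5 samples). It was 1 of 20 groups examined, and chance flags about 1 group in 20. The gene was low in every library, between -0.71 and -0.46.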

How the results depend on the processing

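Of the gasdermin differences that were tested, none passed the threshold in any alternative run, and no gasdermin difference, tested or described, moved by more than the replicate SD. Over these, Gsdmc4 ranged from 0.62 to 0.74 for housing in Xiap-/- crypts, -0.57 to -0.38 for genotype apart and 0.10 to 0.16 for wild-type housing. Leaving out each library gave 0.61 to 0.79, -0.56 to -0.39 and 0.09 to 0.22, with limma adjusted p of 0.474 to 0.834 for the last. Some differences near 0 changed sign when 1 library was left out: in genotype co-housed Gsdmc4 ran from -0.02 to 0.13 and Gsdmc2 from -0.02 to 0.11, and in wild-type housing Gsdmc2 ran from -0.01 to 0.15, Gsdmd from -0.10 to 0.02, Gsdmc from -0.06 to 0.00 and Gsdmc3 from -0.05 to 0.05. Gsdmd ran from -0.18 to -0.03 in genotype apart and from -0.12 to 0.03 in Xiap-/- housing, where array weights and the depth covariate gave 0.00. Gsdmc2 is not tested under the stricter filter.

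Counts over all genes were less stable than the gasdermin values; unless a value shows it, the cause was not tested. Against 0 in wild-type housing, 43 in genotype apart, 3 in genotype co-housed and 14 in Xiap-/- housing, no filter gave 5 in wild-type housing and 10 in genotype co-housed. The stricter filter gave 25, 0 and 8 in the last 3 comparisons, and fits on 2 groups gave 12, 142 and 169. Plain moderation gave 65 in genotype apart and 23 in Xiap-/- housing. Array weights gave 5, 385, 159 and 224. The depth covariate gave 3 in genotype apart and 1 in Xiap-/- housing. Leaving out 1 library gave 0 to 66 (wild-type apart 4 left out), 9 to 697 (Xiap-/- apart 2 and wild-type apart 5), 1 to 12 and 2 to 64 (Xiap-/- apart 3 and wild-type apart 5).

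The correlations of deviations between same-numbered libraries ran from -0.42 to 0.36 with a median of 0.01, and 10 of 27 were over 0.1. Between the genotypes housed apart they ran from 0.07 to 0.25, and between wild-type apart and wild-type co-housed from -0.42 to 0.17. Whether same-numbered libraries share a source was not tested. A replicate block gave -0.01 for Gsdmc2 and 0.01 for Gsdmd in wild-type housing, both of the opposite sign. Leaving out wild-type apart library 6, the only library with that number, gave the same 2 values. The block gave 350 genes in genotype apart and 189 in Xiap-/- housing, against 43 and 14 without it. Of the 5 genes most like Gsdmc4 by level, 2 were shared with Spearman ranking and 0 without the 2 farthest libraries; by deviations 3 were shared with Spearman. For Gsdmd these were 2 and 0 by level, and 1 and 1 by deviations. The unknown depth limits what can be said of Gsdmc and Gsdmc3.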
